A study of Mus musculus with 15 samples.

Results

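The 9 genes described here are marker genes of Muller glia and astrocytes, the supporting cells of the retina and optic nerve, namely Glul, Slc1a3, Aqp4, Gfap, Kcnj10, Dkk3, Abca8a, Apoe and Vim. They were taken by gene symbol from the deposited expression tables of mouse eyes, with 1 transcript per symbol (the one with the highest mean read count), and all 9 were found among 20418 symbols. Glul and Kcnj10 lie on chromosome 1, Vim on chromosome 2, Apoe and Dkk3 on chromosome 7, Gfap and Abca8a on chromosome 11, Slc1a3 on chromosome 15 and Aqp4 on chromosome 18, and their values are reads over all exons of the transcript. Muller glia span the retina from its inner to its outer limit, take up glutamate released by neurons and turn it into glutamine, and carry potassium and water away from active neurons. Astrocytes enter the retina along the optic nerve and spread over its inner surface. They build their cytoskeleton from the intermediate filament proteins of Gfap and Vim. In a whole eye several of these genes are not confined to glia: Vim is also used by mesenchyme and lens, Apoe by macrophages and pigment epithelium, and Aqp4 by muscle and secretory epithelia.

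The study sequenced poly(A)+ RNA of whole eyes of BALB/c mice, eyelids included, to examine eyelid development in mice lacking Egr1, a zinc finger transcription factor. Newborn eyes were 2 Egr1-/- and 2 wild-type libraries, and adult eyes were 2 Egr1-/- libraries and 1 wild type. Single eyes were sequenced 3 days after birth, when eyelids of mice are normally fused. Mice E24 and E29 (Egr1-/-) had 1 open and 1 closed eye each, E32 (Egr1-/-) had 2 open eyes, and the littermate E28 (Egr1+/-) had 2 closed eyes. The Egr1-/- allele came from a C57BL/6 line backcrossed into BALB/c, 5 times for initial work and 4 times for later work, and the labels do not say which libraries belong to which. C57BL/6 alleles that remained in Egr1-/- mice, near Egr1 or elsewhere, cannot be told apart from the genotype for any gene below. Nothing in the labels says whether newborn and adult replicates were separate animals, so their p-values measure the spread between libraries, which may be technical. Day 3 eyes and the other libraries may also differ in cross and processing, which cannot be told apart from age.

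Levels of Egr1 itself went against the genotype labels. Read counts scaled to library size (CPM, after TMM scaling) were 214 and 274 in newborn libraries labelled knockout, against 46.1 and 60.7 in newborn wild types. They were 256 and 184 CPM in adult libraries labelled knockout, against 33.0 CPM in the adult wild type. At day 3 they lay between 157 and 367 CPM in eyes labelled knockout, against 99.3 and 110.3 CPM in heterozygous eyes. Counts over a whole transcript leave unknown whether its product is made, so every direction below is drawn from the labels and the groups are called labelled knockout. Reads in transcripts came to between 20334849 and 43907093 per library. Some libraries stood apart. The lens crystallin Cryaa, picked after its values were seen, was at 250.2 CPM in newborn labelled-knockout replicate 1, while the remaining newborns held 36243 to 40073 CPM. The left eye of E32 had the lowest summed level of 14 inner retina markers among day 3 eyes, 562 CPM against 899 to 1895 CPM in the others.

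Upstream sequences of 3 of the genes are shown because their edgeR calls differed with age and genotype. Glul and Kcnj10 both rose in adults, while Slc1a3 did not and passed as a fall in newborn labelled knockouts. Kcnj10 was also lower there (log2 fold change -0.66 ± 0.32) but did not pass. The call of Slc1a3 was lost when certain single libraries were left out. Each is the 250 bases before the start site in the RefSeq promoter table, build GRCm38.p6, 5′ to 3′ on the strand of the gene, and 7 of the 9 genes matched that table. Capitals mark matches, on either strand, to the GC box GGGCGG, the STAT motif TTCNNNGAA or the TATA motif TATAAA. The Glul region is chr1:153899679-153899928 (plus strand), that of Kcnj10 is chr1:172340960-172341209 (plus strand) and that of Slc1a3 is chr15:8710808-8711057 (minus strand).
Glul: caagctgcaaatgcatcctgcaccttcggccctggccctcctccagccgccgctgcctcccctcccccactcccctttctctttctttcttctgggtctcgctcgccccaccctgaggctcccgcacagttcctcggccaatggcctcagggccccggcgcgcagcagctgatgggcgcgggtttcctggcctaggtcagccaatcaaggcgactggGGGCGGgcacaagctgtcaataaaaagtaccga
Kcnj10: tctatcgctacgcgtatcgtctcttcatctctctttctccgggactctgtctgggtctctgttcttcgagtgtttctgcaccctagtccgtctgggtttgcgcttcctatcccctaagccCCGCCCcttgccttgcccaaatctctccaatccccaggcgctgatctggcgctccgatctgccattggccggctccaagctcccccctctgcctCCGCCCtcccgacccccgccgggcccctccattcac
Slc1a3: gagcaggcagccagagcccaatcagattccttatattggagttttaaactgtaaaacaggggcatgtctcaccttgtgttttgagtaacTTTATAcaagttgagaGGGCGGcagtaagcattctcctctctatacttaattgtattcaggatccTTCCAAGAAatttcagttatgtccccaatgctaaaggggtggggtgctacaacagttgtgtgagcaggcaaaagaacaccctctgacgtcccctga
Glul held 1 GC box, which began 33 bases before the start site. Kcnj10 held 2, both on the opposite strand, 130 and 36 bases before it. Slc1a3 held a STAT match at 96 bases, a GC box at 145 bases and a TATA match on the opposite strand at 161 bases. Of all 32851 windows of this length in the table, 32.7% held a GC box, 7.02% a STAT match and 12.4% a TATA match. The EGR motif GCGNGGGCG, which can overlap a GC box, was in 4.70% of them and in no window of the 7 matched genes. The palindromic NFI motif, bound by nuclear factor I proteins, was in 0.0365% and also in none of the 7. The Glul window was 64.8% G and C and that of Slc1a3 44.8%.

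Per exon length, Vim, Apoe and Dkk3 were the most abundant of the 9 genes at birth and at day 3, and Apoe and Glul in adults. In the authors' RPKM (reads per kilobase of exon, scaled to the reads of the library), median levels of newborn libraries were 619 for Vim, 407 for Apoe, 233 for Dkk3, 112 for Glul, 92.3 for Gfap, 24.1 for Slc1a3, 1.74 for Kcnj10, 0.975 for Abca8a and 0.822 for Aqp4. The order of medians was the same at day 3, with 698 RPKM for Vim at the top and 0.222 RPKM for Aqp4 at the bottom. In adults the medians were 653 RPKM for Apoe, 431 for Glul, 340.4 for Vim, 285 for Dkk3, 22.1 for Slc1a3, 20.6 for Gfap, 14.1 for Kcnj10, 13.4 for Aqp4 and 11.9 for Abca8a. Neighbours in this order mostly overlapped in their ranges over libraries. Ranges did not overlap between Slc1a3 and Kcnj10 in newborns, and at day 3 between Vim and Apoe, Dkk3 and Glul, and Slc1a3 and Kcnj10. In adults the ranges of Apoe, Glul and Vim lay apart from one another, as did those of Dkk3 and Slc1a3. The spread of the 9 medians was narrower in adults, where the 3 genes of lowest level stood above 10 RPKM in all but 1 value, the 9.33 RPKM of Abca8a in labelled-knockout replicate 2.

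**Figure D1:**
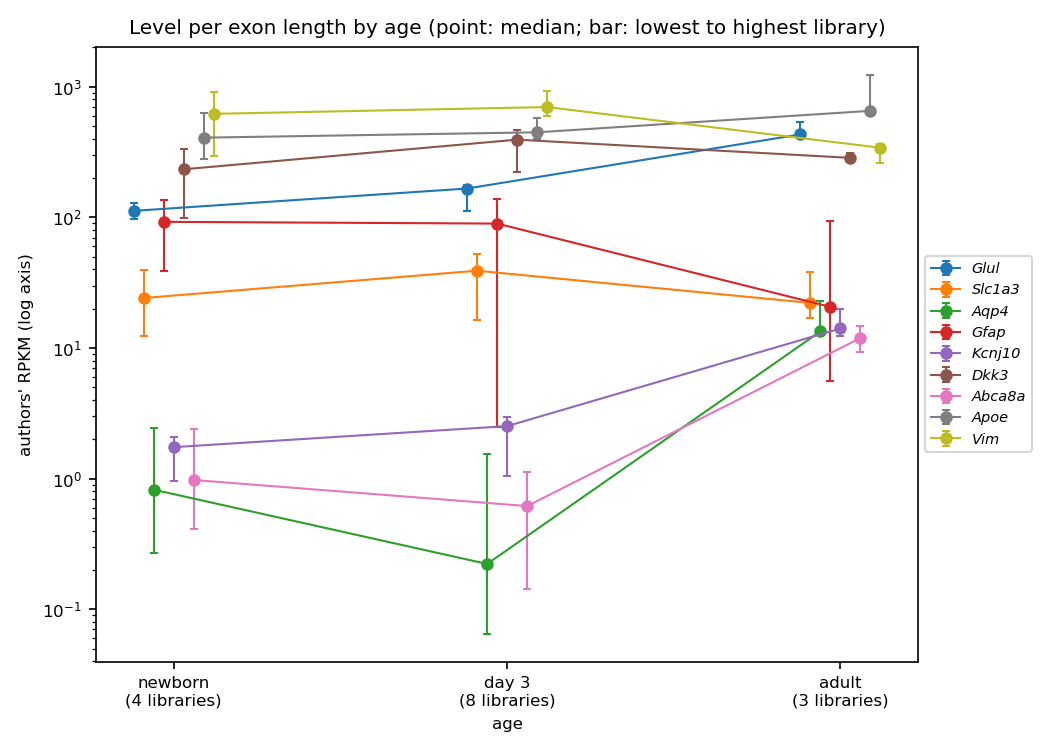
Level of each of the 9 genes per exon length (authors' RPKM, log axis) at 3 ages. Points are medians over 4 newborn, 8 day 3 and 3 adult libraries of all genotypes, and bars run from the lowest to the highest library. Aqp4, Kcnj10 and Abca8a climb to 11.9 to 14.1 RPKM in adults, while the Gfap bar at day 3 spans 2.46 to 138 RPKM.

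Glul encodes glutamine synthetase, which makes glutamine of glutamate and ammonia in glia. Its level was 364 and 297 CPM in newborn labelled knockouts, against 355 and 397 CPM in newborn wild types. Day 3 eyes had 575, 494, 383 and 426 CPM (open, E24, E29, E32 right and E32 left), 609 and 618 CPM (closed, E24 and E29) and 623 and 602 CPM (heterozygous, right and left). Adult eyes had 1483 and 1323 CPM in labelled knockouts, against 1290 CPM in the wild type. Every adult library lay above every younger one, and the right eye of E32 was the only day 3 eye within the newborn range. Slc1a3 encodes the glutamate transporter GLAST, which clears glutamate from the extracellular space. It had 53.2 and 85.5 CPM in newborn labelled knockouts, against 155 and 179.6 CPM in newborn wild types. At day 3 it had 251, 184, 82.8 and 163 CPM (open), 275 and 212 CPM (closed) and 262 and 194 CPM (heterozygous), in the same order of eyes. Adult eyes had 157 and 76.7 CPM in labelled knockouts, against 103 CPM in the wild type. Levels of Slc1a3 thus did not order by age, and the lowest day 3 value was again that of the right eye of E32.

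Aqp4 encodes the main water channel of glial endfeet. It had 13.0 and 6.72 CPM in newborn labelled knockouts, against 2.90 and 1.50 CPM in newborn wild types. Day 3 eyes had 1.73, 1.63, 2.23 and 9.43 CPM (open), 0.734 and 0.416 CPM (closed) and 1.40 and 0.657 CPM (heterozygous). Adult eyes had 114 and 74.5 CPM in labelled knockouts, against 76.8 CPM in the wild type. The adult libraries lay far above the rest, and day 3 values rested on few reads, 10 to 64 in every eye but the left eye of E32 with 236. Kcnj10 encodes Kir4.1, the potassium channel through which glia take up and release potassium. It had 5.36 and 10.3 CPM in newborn labelled knockouts, against 12.2 and 12.4 CPM in newborn wild types. Levels at day 3 were 19.2, 19.2, 6.98 and 14.0 CPM (open), 20.2 and 13.5 CPM (closed) and 17.5 and 18.7 CPM (heterozygous). Adult eyes had 106 and 74.1 CPM in labelled knockouts, against 85.9 CPM in the wild type. Both channels of the endfoot were high in every adult eye, but in the younger eyes their low and high libraries were not the same.

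Gfap and Vim encode intermediate filament proteins, Gfap that of astrocytes and of reactive Muller glia and Vim that of glia, mesenchyme and progenitors. Gfap had 362 and 406 CPM in newborn labelled knockouts, against 198 and 117 CPM in newborn wild types. Day 3 eyes had 307, 371, 15.6 and 259 CPM (open), 476 and 298 CPM (closed) and 438 and 8.41 CPM (heterozygous). Adult eyes had 253 and 16.8 CPM in labelled knockouts, against 63.0 CPM in the wild type. At day 3 the right eye of E32 lay far below the other open eyes. The heterozygous eyes lay far apart, as did the adult labelled knockouts. With 2 libraries in each of these groups, neither library can be called the odd one. The deposited tables hold a second Gfap transcript that shares reads with the one used, with 34.7% to 51.2% as many reads, so the low libraries were low in both. Vim had 1757 and 1570 CPM in newborn labelled knockouts, against 696 and 938 CPM in newborn wild types. In day 3 eyes it had 1570, 2250, 2071 and 1837 CPM (open), 1573 and 1611 CPM (closed) and 1757 and 1372 CPM (heterozygous). Adult eyes had 618 and 735 CPM in labelled knockouts, against 534 CPM in the wild type. Newborn labelled knockouts lay within the range of the day 3 eyes, and newborn wild types lay nearer to the adults.

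Abca8a encodes a lipid transporter of the ABC family and Apoe the apolipoprotein that carries lipids between cells of the nervous system. Abca8a had 13.8 and 8.57 CPM in newborn labelled knockouts, against 2.90 and 3.38 CPM in newborn wild types. Its day 3 levels were 2.03, 3.63, 6.94 and 7.47 CPM (open), 1.59 and 5.15 CPM (closed) and 1.09 and 6.66 CPM (heterozygous). Adult eyes had 80.1 and 57.2 CPM in labelled knockouts, against 74.3 CPM in the wild type. Its course was that of Aqp4, low in young eyes, higher in newborn labelled knockouts than in wild types and highest in adults. Abca8a and Abca8b are near-identical neighbours, so the split of reads between them is uncertain. Apoe had 817 and 589 CPM in newborn labelled knockouts, against 448 and 536 CPM in newborn wild types. Day 3 eyes had 749, 737, 884 and 828 CPM (open), 710.2 and 654 CPM (closed) and 675 and 658 CPM (heterozygous). Adult eyes had 1523 and 902 CPM in labelled knockouts, against 892 CPM in the wild type. In Apoe the adult labelled-knockout replicate 1 stood well above the other 2 adults.

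Dkk3 encodes a secreted protein of the Dickkopf family, whose other members inhibit Wnt signalling. It had 344 and 809 CPM in newborn labelled knockouts, against 1063 and 1244 CPM in newborn wild types. At day 3 it had 1697, 1599, 1050 and 897 CPM (open), 1964 and 1713 CPM (closed) and 1891 and 1611 CPM (heterozygous). Adult eyes had 1037 and 1058 CPM in labelled knockouts, against 1007 CPM in the wild type. The 3 adult libraries were within a narrow band, and both eyes of E32 lay below every other day 3 eye.

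**Figure D2:**
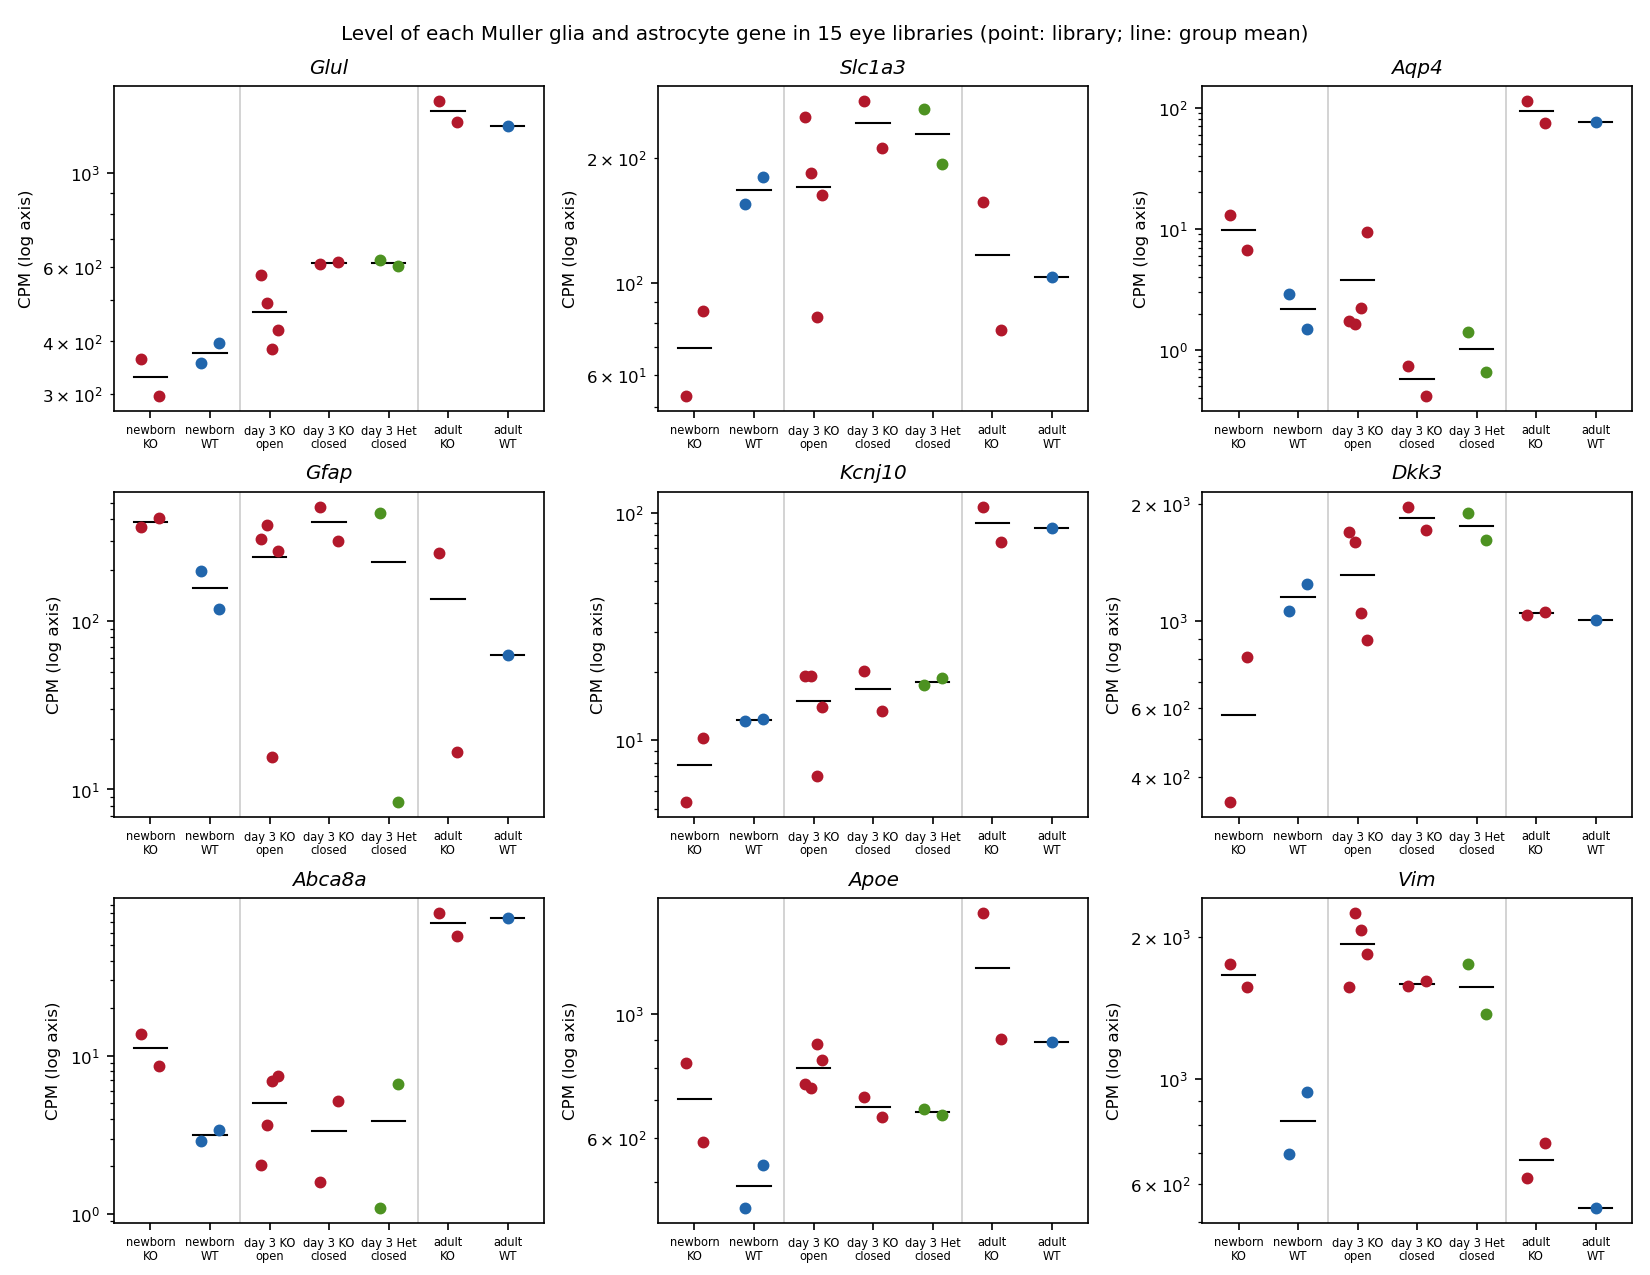
CPM (log axis) of each gene in 15 libraries. Points are libraries, short lines group means, and colours the genotype on the label (red labelled knockout, blue wild type, green heterozygous), with vertical lines between newborn, day 3 and adult groups. Adult levels of Glul, Aqp4, Kcnj10 and Abca8a lie above those of every younger library, and Gfap has its lowest points at 15.6, 8.41 and 16.8 CPM.

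The first comparison asked which of the genes differ between adult and newborn eyes. Glul, Aqp4, Kcnj10 and Abca8a rose in adults and Vim fell, so that the enzyme of glutamine synthesis, both endfoot channels and a lipid transporter were higher and the filament shared with mesenchyme was lower. By edgeR's quasi-likelihood test (Benjamini-Hochberg adjusted p below 0.05, 3 adult against 4 newborn libraries, mean of the effects in both genotypes), 4 of the 9 genes rose and 1 fell. Of all 17592 genes tested, 25.3% rose and 24.0% fell (49.2% in either direction), and the median log2 fold change was 0.80 over the 9 genes and -0.04 over all. The log2 fold changes (± SE) were 4.18 ± 0.33 for Aqp4 (adjusted p = 9.05e-05), 3.57 ± 0.22 for Abca8a (3.82e-05), 3.15 ± 0.25 for Kcnj10 (9.66e-05), 1.92 ± 0.23 for Glul (0.000602) and -0.97 ± 0.28 for Vim (0.023). Apoe had 0.80 ± 0.29 (adjusted p = 0.0556), Dkk3 0.32 ± 0.35 (0.484), Slc1a3 0.01 ± 0.29 (0.989) and Gfap -1.43 ± 0.80 (0.179), none of which passed. The call of Vim was lost with wild types alone (-0.65, adjusted p = 0.28), with the authors' library totals (-0.91, 0.0623), without adult labelled-knockout replicate 1 (-0.91, 0.0559) and without newborn wild-type replicate 2 (-0.83, 0.0692). The value of Gfap was -2.93 without adult labelled-knockout replicate 1 and -0.94 without replicate 2, and Apoe had 1.01 without replicate 2. Such fits hold 1 adult labelled knockout and lack the spread between the 2, so no conclusion is drawn from them. In such bulk samples, fewer cells of a type and less RNA per cell cannot be told apart. Rod markers moved with the rises of the glial genes. The summed level of 10 rod genes was 25011 to 49319 CPM in adults, against 516 to 1575 CPM in newborns, and 8 of 10 fibroblast markers fell while Vim did. The part of these changes in the result was not tested.

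Other glial genes moved both ways with age. Of 26 further Muller glia genes, 11 rose and 10 fell in adults (median log2 fold change -0.17, against -0.04 over all genes). Ptgds, the prostaglandin D synthase of glia and meninges, rose by 2.86 ± 0.21 (adjusted p = 6.75e-05) and the antioxidant enzyme Prdx6 by 1.61 ± 0.14 (0.000146). Hes5, a Notch target of progenitors, had -4.28 ± 0.24 (2.85e-05). Of 24 further astrocyte genes, 9 rose and 4 fell (median 0.52). The bicarbonate transporter Slc4a4 rose by 1.30 ± 0.14 (adjusted p = 0.000406), and Fabp7, the fatty acid binding protein of radial glia, had -7.00 ± 0.59 (0.000125). Cldn10, a claudin, had 0 reads in all 3 adults, against 2.19 to 6.23 CPM in newborns. Of 26 genes of reactive glia, 17 rose and 6 fell (median 1.54), with the metallothionein Mt1 at 1.82 ± 0.13, the protease inhibitor A2m at 2.44 ± 0.21 and the progenitor filament Nes at -2.95 ± 0.23 (adjusted p at most 0.00015 each). Without newborn wild-type replicate 1 or 2, 9 of the reactive list rose and 2 fell.

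By role, 10 of 18 genes of the glutamate cycle rose in adults and 2 fell (median 1.72). Among those of smallest p were genes of neurons, the vesicular transporter Slc17a7 (5.78 ± 0.31) and the GABA enzyme Gad1 (3.20 ± 0.21). Of 17 genes of water and potassium transport and their anchors, 12 rose and 2 fell (median 1.27), with Kcnj16, a channel subunit that pairs with Kir4.1, at 4.05 ± 0.45 and the cotransporter Slc12a2 at 1.31 ± 0.13. Of 20 lipid carriers and transporters, 12 rose and 0 fell (median 1.04, edgeR), with Apod at 2.56 ± 0.17, Abca8b at 2.12 ± 0.21 and Abcg1 at 1.44 ± 0.14. Of 12 further filament genes tested, 3 rose and 3 fell (median -0.17), shares close to the 25.3% and 24.0% of all genes, the neurofilament Nefh with 4.12 ± 0.22 and the lamin Lmnb1 with -2.14 ± 0.25. Of 14 Wnt pathway genes tested, 3 rose and 4 fell (median -0.47), with Sfrp5 at 1.77 ± 0.29, Sfrp2 at -1.94 ± 0.29 and Lrp5 at -0.97 ± 0.19. All genes named here passed the edgeR test with an adjusted p below 0.05.

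Day 3 eyes allowed the ages to be placed in sequence among labelled knockouts, with the 2 eyes of each mouse summed. Slc1a3 passed as a rise at day 3 against newborn, and Glul, Aqp4, Kcnj10 and Abca8a as rises and Vim as a fall at adult against day 3. Of the 9 genes 1 rose and 0 fell at day 3 against newborn (3 mice against 2 libraries, edgeR). Of all 17980 genes, 11.1% rose and 6.70% fell (2003 and 1204 genes, but 806 and 1640 with the authors' library totals). At an unadjusted p below 0.05 (edgeR) there were 6 of the 9, and 6650 of all 17980 genes. DESeq2 called 6 of the 9, and it called more genes than edgeR over all genes too. The median log2 fold change was 0.14 over the 9 genes and -0.08 over all. The gene that rose was Slc1a3, at 1.49 ± 0.42 (edgeR adjusted p = 0.0457). Its call was lost without mouse E24 (1.20, adjusted p = 0.0927) or E29 (1.35, 0.115), without any 1 newborn library (0.0727 to 0.252) and with the authors' library totals (1.26, 0.0774). Values that did not pass were 1.38 ± 0.43 for Dkk3 (adjusted p = 0.0582), 1.00 ± 0.36 for Kcnj10 (0.0872), 0.65 ± 0.25 for Glul (0.0951), -1.91 ± 0.68 for Aqp4 (0.0839) and -1.33 ± 0.47 for Abca8a (0.0831). Gfap had -0.42 ± 0.88, Apoe 0.12 ± 0.28 and Vim 0.14 ± 0.25. Aqp4 and Abca8a passed as falls without mouse E32, at -3.26 (adjusted p = 0.00232) and -2.02 (0.00957), and Dkk3 (1.46, 0.0231) and Kcnj10 (1.07, 0.0259) then passed as rises. Calls grew in other lists too in that fit, to 16 of 26 further Muller glia genes and 9 of 26 reactive glia genes. That fit lacks the spread that E32 adds, so no conclusion is drawn from it. With the closed eyes of E24 and E29 alone, more genes passed over all genes, and 6 of the 9 did. Among these were Aqp4 at -4.24 (edgeR adjusted p = 0.00125) and Glul at 0.74 (0.028). Retinal markers moved in the same comparison. Of 14 inner retina markers 6 rose (median 1.75), with summed levels of 562 to 1895 CPM in day 3 labelled-knockout eyes, against 346 to 519 CPM in newborn labelled knockouts. The median of 10 rod markers was 1.92, and 3 of 10 fibroblast markers fell. The part of these cells in the Slc1a3 value was not tested.

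At adult against day 3, 4 of the 9 genes rose and 1 fell in labelled knockouts (2 libraries against 3 mice), when 24.4% of 17980 genes rose and 25.7% fell (50.1% in either direction, 4385 and 4625 genes, but 5453 and 3237 with the authors' library totals). The median was 0.66 over the 9 genes and 0.07 over all. Aqp4 rose by 5.17 ± 0.74 (adjusted p = 0.000835), Abca8a by 3.94 ± 0.49 (0.000457), Kcnj10 by 2.53 ± 0.34 (0.000677) and Glul by 1.43 ± 0.24 (0.00165), and Vim fell with a log2 fold change of -1.44 ± 0.26 (0.00261). Apoe had 0.66 ± 0.28 (adjusted p = 0.0783), Slc1a3 -0.74 ± 0.41 (0.164), Dkk3 -0.51 ± 0.41 (0.325) and Gfap -1.09 ± 0.92 (0.349). With adult labelled-knockout replicate 1 left out, Gfap had -4.09, in a fit that lacks the spread between the 2 adult libraries. Apoe passed as a rise in several settings, with 0.99 where replicate 2 was left out. Markers of other cell types moved here as well. In adult labelled knockouts 9 of 10 rod markers rose (median 5.39), with summed levels of 25011 to 38727 CPM, against 635 to 1716 CPM in day 3 labelled-knockout eyes, and 6 of 8 pigment epithelium markers tested rose (median 2.64). Of 10 fibroblast markers 7 fell (median -1.63), with 1776 to 2624 CPM in adults, against 10830 to 25143 CPM at day 3, and 6 of 10 endothelial markers fell. Their part in the rises and in the fall of Vim was not tested. These comparisons share the day 3 mice or the adult libraries with one another, so their values stand side by side and are not independent. Of the 26 further Muller glia genes, 8 rose and 2 fell at day 3 against newborn, led by the transcription factor Lhx2 (2.55 ± 0.40), the glutamine transporter Slc38a3 (1.91 ± 0.35) and Sox9 (1.05 ± 0.19). At adult against day 3, 9 rose and 10 fell, led by Ptgds (2.84 ± 0.27), Sox9 (-2.14 ± 0.20) and Notch1 (-3.37 ± 0.33). Of the 24 astrocyte genes, 7 rose and 1 fell at day 3 against newborn, and 7 rose and 7 fell at adult against day 3, where Ncan, a matrix proteoglycan, had 3.06 ± 0.31 and then -4.23 ± 0.33. S100b, a calcium-binding protein of astrocytes, had -1.13 ± 0.23 and then 1.70 ± 0.23. The calls at day 3 against newborn depended on single libraries: without newborn labelled-knockout replicate 1 no gene passed in edgeR, in either list or over all genes, without replicate 2 the Muller glia list had 2 calls and the astrocyte list 3, and without mouse E29 they had 3 and 2. At adult against day 3, leaving out either adult labelled-knockout library left 12 calls in the Muller glia list, and 7 or 9 in the astrocyte list without replicate 1 or 2.

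The newborn comparison asked how labelled-knockout eyes differed from wild types at birth. Aqp4 and Abca8a rose and Slc1a3 fell, and the genes did not move as 1 block. Of the 9 genes 2 rose and 1 fell (2 against 2 libraries, edgeR), when 14.6% of 17592 genes rose and 9.38% fell (2576 and 1650 genes, but 2751 and 1084 with the authors' library totals). The median log2 fold change was 0.51 over the 9 genes and -0.07 over all. Aqp4 averaged 9.88 ± 4.46 CPM in labelled knockouts, against 2.20 ± 0.993 CPM in wild types (SD, n = 2 each), a log2 fold change of 2.17 ± 0.44 (SE, edgeR adjusted p = 0.013). Abca8a averaged 11.2 ± 3.70 CPM, against 3.14 ± 0.338 CPM in wild types, at 1.82 ± 0.29 (edgeR adjusted p = 0.00645). Slc1a3 averaged 69.4 ± 22.8 CPM, against 167 ± 17.2 CPM in wild types, at -1.28 ± 0.37 (edgeR adjusted p = 0.0456). None of the other 6 passed: Gfap at 1.28 ± 0.97 (adjusted p = 0.374), Vim at 1.02 ± 0.34 (0.0709), Apoe at 0.51 ± 0.38 (0.366), Glul at -0.20 ± 0.30 (0.663), Kcnj10 at -0.66 ± 0.32 (0.182) and Dkk3 at -1.01 ± 0.45 (0.153). DESeq2 also called Vim (0.98, adjusted p = 5.57e-05) and Dkk3 (-1.05, 0.0186). Its share over all genes is not given here, so these calls are not read as particular to the 9 genes.

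The newborn calls depended on single libraries. With either wild type left out, no gene of the 9 passed, Aqp4 having 2.74 (edgeR adjusted p = 0.0693) without replicate 1 and 1.78 (0.102) without replicate 2, Abca8a 1.74 (0.082) and 1.96 (0.0629), and Slc1a3 -1.36 (0.161) and -1.15 (0.184). Slc1a3 also did not pass without labelled-knockout replicate 1 (-0.98, adjusted p = 0.209), the library with little lens RNA, nor with the authors' library totals (-1.15, 0.0667). Without labelled-knockout replicate 2, Dkk3 (-1.73, adjusted p = 0.0299) and Kcnj10 (-1.18, 0.0323) passed as falls. The value of Gfap was 1.27 or 1.30 without adult labelled-knockout replicate 1 or 2, libraries of 253 and 16.8 CPM that enter the same fit. Leaving out either takes their spread from the fit, so no conclusion is drawn from a lower p there. Markers of other cell types moved in this comparison too. Inner retina markers fell in 9 of 14 genes and had summed levels of 346 to 519 CPM in labelled knockouts, against 935 to 1136 CPM in wild types. Rod markers fell in 9 of 10 genes (median -2.69), with 516 to 675 CPM in labelled knockouts, against 1358 to 1575 CPM in wild types. Of 10 oligodendrocyte markers 4 rose and 1 fell, with 545 to 732 CPM in labelled knockouts, against 236 to 279.5 CPM in wild types. Basal epidermis markers rose in 10 of 10 genes, with 6433 to 7234 CPM against 615 to 1025 CPM in wild types. Fibroblast (6 of 10), muscle (5 of 10), endothelial (8 of 10) and macrophage markers (4 of 14) rose as well, the last with 480.2 to 627 CPM in labelled knockouts, against 179 to 184 CPM in wild types. All 14 inner retina and all 14 macrophage markers in the tables had reads in each newborn library, and the part of these cells in the glial values was not tested.

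Other glial genes were counted in newborn labelled knockouts as well. Of 26 further Muller glia genes, 5 rose and 11 fell (median -0.16, against -0.07 over all genes), with Hes5 at -2.12 ± 0.24, Lhx2 at -1.88 ± 0.25 and the carbonic anhydrase Car2 at -1.93 ± 0.27 (edgeR adjusted p at most 0.00477). Rlbp1, the retinal-binding protein of Muller glia, chosen after its values were seen, had 60.7 and 84.2 CPM in labelled knockouts, against 169 and 192 CPM in wild types (-1.33 ± 0.24, edgeR adjusted p = 0.00896). Of 24 further astrocyte genes, 6 rose and 5 fell (median 0.19). Acsbg1, an acyl-CoA synthetase, rose by 2.76 ± 0.29, while Fabp7 (-2.50 ± 0.47) and the chloride channel Ttyh1 (-1.79 ± 0.34) fell. Of 26 genes of reactive glia, 13 rose and 0 fell (median 1.77, edgeR), led by Mt1 (1.42 ± 0.17), Mt2 (1.88 ± 0.23) and the galectin Lgals3 (2.47 ± 0.33), genes that other tissues of the eye and lid also express. Without newborn wild-type replicate 1 no gene passed in edgeR in any of these lists or over all genes. Without replicate 2 the calls were 4 in the Muller glia list, 1 in the astrocyte list and 3 in the reactive list, and without labelled-knockout replicate 1 the astrocyte list had 3.

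The same was done by the roles of the 9 genes. Of 18 glutamate cycle genes, 1 rose and 8 fell (median -0.39), led by the neuronal genes Slc17a6 (-2.26 ± 0.29), Gad2 (-1.88 ± 0.25) and Gad1 (-2.14 ± 0.28). Of 17 water and potassium genes, 8 rose and 1 fell (median 0.91), led by the cation channel Trpv4 (1.61 ± 0.21), utrophin (Utrn, 1.29 ± 0.17) and Slc12a2 (1.27 ± 0.18). Of 20 lipid carriers and transporters, 7 rose and 1 fell (median 0.88), with Apoc1 at 1.68 ± 0.37, Apod at 1.16 ± 0.22 and Abcg1 at -1.19 ± 0.19. Of 12 filament genes tested, 2 rose and 4 fell (median -0.74), the neuronal Nefm (-1.84 ± 0.21), Nefl (-2.10 ± 0.24) and Ina (-1.68 ± 0.20) among them. Of 14 Wnt pathway genes tested, 4 rose and 0 fell (median 0.63, edgeR), with Sfrp5 at 2.23 ± 0.40, Dkk2 at 1.17 ± 0.25 and the receptor Lrp6 at 0.81 ± 0.17. Leaving out newborn wild-type replicate 1 took all 5 lists to 0 calls (edgeR), and without replicate 2 the lipid and Wnt lists had 0, the glutamate list 1 and the water and potassium list 3. Without labelled-knockout replicate 1 the calls were 5 in the glutamate list, 5 in the water and potassium list, 2 in the lipid list and 2 in the Wnt list.

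In adult eyes the log2 fold change of each gene between labelled knockouts and wild type was no larger than its SE as printed. None of the 9 passed (2 libraries against 1, edgeR; 0 at an unadjusted p below 0.05, 0 by DESeq2), and 0% of 17592 genes did (506 at an unadjusted p below 0.05, 107 by DESeq2). Log2 fold changes ran from -0.09 ± 0.32 for Abca8a to 0.47 ± 0.47 for Apoe, with 1.12 ± 1.23 for Gfap above them. With 1 adult wild type, the fit takes its spread from the remaining groups. Of the 26 reactive glia genes none passed, with a median of 0.68, and the 2 of smallest p were Steap4 (1.57 ± 0.54) and Socs3 (2.10 ± 0.85). The higher values lay in 1 library: the summed level of the 26 genes was 3645 CPM in labelled-knockout replicate 1 and 1543 CPM in replicate 2, against 1455 CPM in the wild type. Replicate 1 also had 1053 CPM of macrophage markers, with 341 CPM in replicate 2, against 303 CPM in the wild type. It had 8581 CPM of lens markers, with 56588 CPM in replicate 2, against 42073 CPM in the wild type. It was the library with the high Gfap and Apoe values, and the part of these cells was not tested.

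Whether the genotype values differed between adult and newborn eyes was tested as an interaction. None of the 9 genes passed (edgeR), when 2.80% of 17592 genes did (0.995% up and 1.80% down, 175 and 317 genes, but 98 and 352 with the authors' library totals). At an unadjusted p below 0.05 (edgeR) there were 3 of the 9, and 3638 of all 17592 genes. DESeq2 called 1 of the 9, and it called more genes than edgeR over all genes too. Abca8a had -1.91 ± 0.43 (adjusted p = 0.0619), with -0.09 in adults and 1.82 in newborns. Aqp4 had -1.85 ± 0.62 (adjusted p = 0.149) and Slc1a3 1.49 ± 0.59 (0.216). Abca8a passed with DESeq2 (-1.89, adjusted p = 0.00356), without a filter on low counts (-1.95, 0.0477) and without either adult labelled-knockout replicate (-2.16, 0.0213 and -1.72, 0.0401). Gfap had -3.15 without adult labelled-knockout replicate 1, and Slc1a3 had 1.89 without replicate 2. Both fits lack the spread between those 2 libraries, so no conclusion is drawn from them. Among related genes, the effect was lower in adults for Mt2 (-1.73 ± 0.34), Slc12a2 (-1.61 ± 0.27) and Trpv4 (-1.80 ± 0.31), and higher for Gad2 (2.18 ± 0.39), Slc17a6 (2.34 ± 0.45), Nefl (2.31 ± 0.39), Ina (1.91 ± 0.32) and Nefm (1.89 ± 0.33), with adjusted p between 0.0422 and 0.049 (edgeR). Over all genes no call was left without newborn wild-type replicate 1 or 2, nor with the replicate block. Without newborn labelled-knockout replicate 1, 1 gene of the water and potassium list passed and none of the reactive, glutamate and filament lists.

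**Figure D3:**
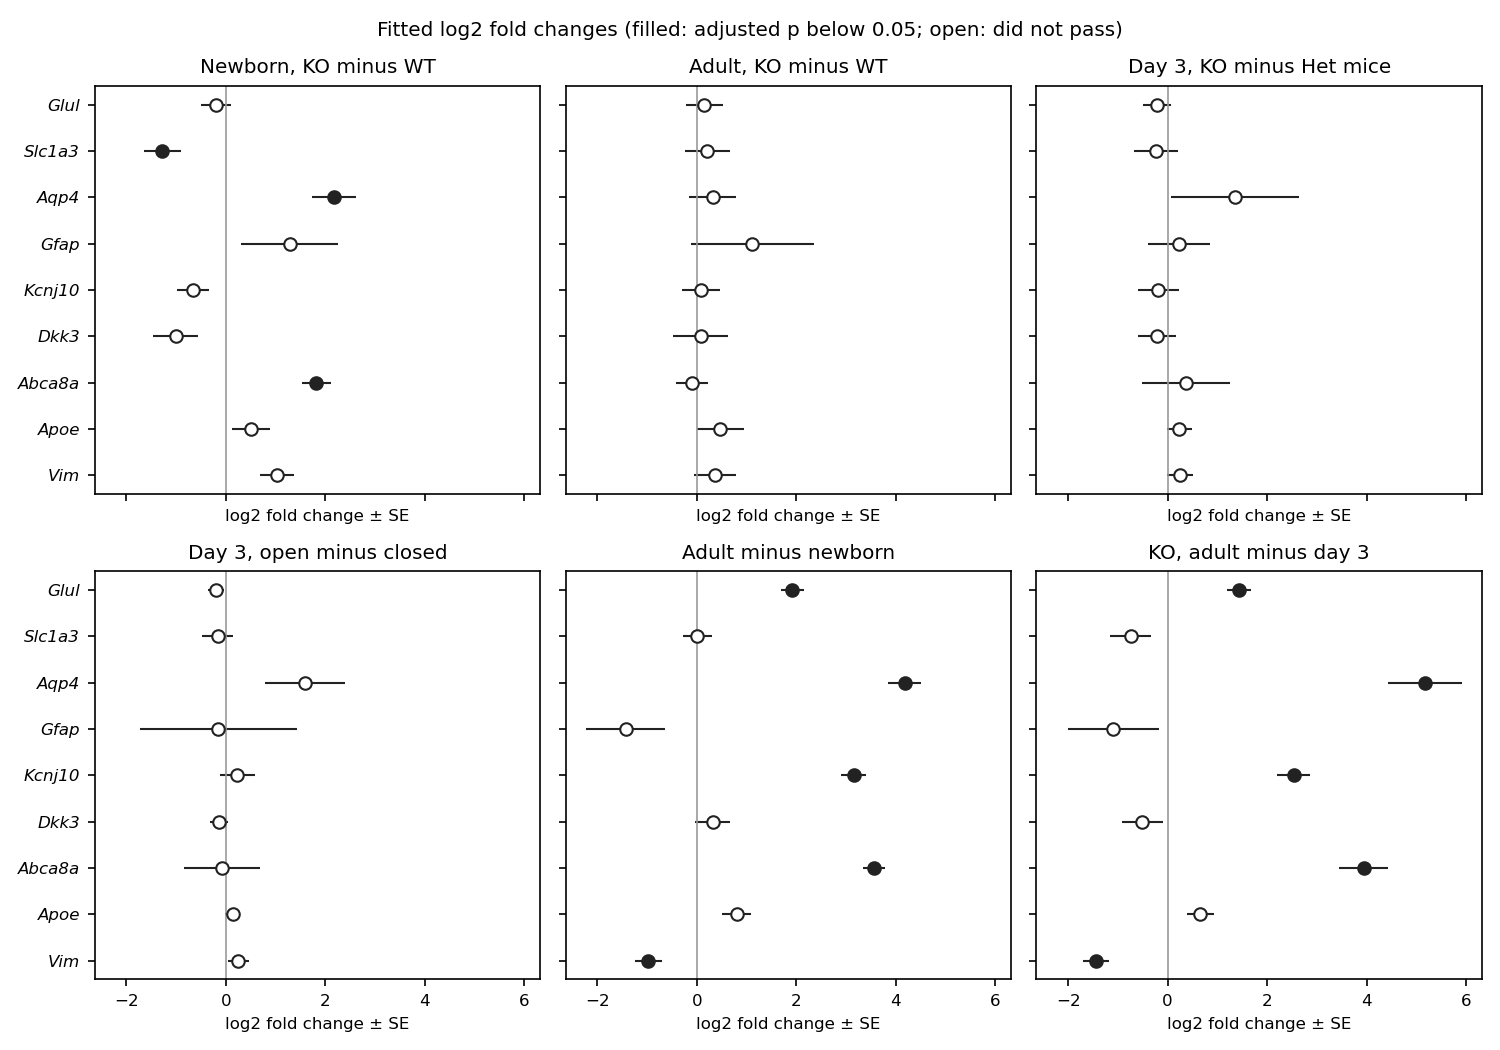
Fitted log2 fold changes with their SE for the 9 genes in 6 comparisons, each as its first group minus its second. Filled points passed (adjusted p below 0.05), open points did not. Passing genes are Aqp4, Abca8a and Slc1a3 in newborns and Glul, Aqp4, Kcnj10, Abca8a and Vim in both comparisons with adults, and none of the 9 passes in the other 3 panels.

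At day 3, open and closed eyes were compared within the mice E24 and E29, the other mice informing only the spread. None of the 9 genes passed (8 eyes, mouse as a block, edgeR; 0 at an unadjusted p below 0.05, 0 by DESeq2), when 0.548% of 15159 genes did (0.488% up and 0.0594% down). Aqp4 was higher in the open eye of both mice, with 1.73 CPM against 0.734 CPM in the closed eye of E24 and 1.63 CPM against 0.416 CPM in that of E29, on 46 and 43 reads against 18 and 10 (1.59 ± 0.80, unadjusted p = 0.0879, adjusted p = 1). The other 8 had values between -0.19 ± 0.16 for Glul and 0.25 ± 0.21 for Vim, that of Gfap carrying an SE of 1.57. Of 24 further astrocyte genes 1 passed, Acsbg1, with 15.8 and 26.8 CPM in open eyes, against 2.04 and 1.25 CPM in the closed eyes of the same mice (3.67 ± 0.42, edgeR adjusted p = 0.0132). No gene of this list passed without mouse E24, without E29 or with no mouse block. Acsbg1 was also the astrocyte-list gene of smallest p in newborns, and basal epidermis markers moved with it, with 5 of 10 up. Their summed levels were 3540 and 6648 CPM in the open eyes of E24 and E29, against 854 and 1202 CPM in the closed eyes. The part of epidermis in the Acsbg1 value was not tested. Of 26 Muller glia genes, 18 glutamate cycle genes, 17 water and potassium genes and 20 lipid genes, 0 passed (edgeR), and Lgals3 of the reactive list came nearest (2.10 ± 0.32, adjusted p = 0.0515).

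Labelled-knockout mice at day 3 were set against the heterozygous littermate with eyes summed (3 mice against 1). Both eyes of that littermate were closed, while each labelled knockout had open eyes, so genotype and eyelid state were mixed here. None of the 9 genes passed (edgeR; 0 at an unadjusted p below 0.05, 0 by DESeq2), and 0% of 16453 genes did (273 at an unadjusted p below 0.05, 93 by DESeq2). Aqp4 had 1.35 ± 1.29, Abca8a 0.37 ± 0.88 and Gfap 0.23 ± 0.63, and the other 6 lay between -0.23 ± 0.44 (Slc1a3) and 0.24 ± 0.26 (Vim). The value of Aqp4 was -0.86 with closed eyes of the labelled knockouts alone, where Abca8a, Dkk3, Glul and Slc1a3 turned sign as well.

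The 2 eyes of 1 mouse differed widely in Gfap in E28 and E32. In E28, both of whose eyes were closed, Gfap had 438 CPM in the right eye and 8.41 CPM in the left, 52.1-fold apart. In E32, both of whose eyes were open, it had 15.6 CPM in the right eye and 259 CPM in the left, 16.7-fold apart. The eyes of E24 and E29 were 1.55-fold and 1.25-fold apart. The low eyes were 1 closed heterozygous eye and 1 open labelled-knockout eye. Of the other members, Glul, Apoe, Vim, Dkk3 and Kcnj10 were within 2.00-fold between the eyes of every mouse, Slc1a3 within 1.97-fold, Aqp4 between 2.13-fold and 4.22-fold, and Abca8a 6.13-fold apart in E28 with the left eye higher. There is 1 library per eye, and these differences have no replicate check.

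Other astrocyte genes were looked up in the same eyes, chosen after their values were seen. Mlc1, a membrane protein of astrocyte endfeet, had 19.1 CPM in the right and 2.67 CPM in the left eye of E28, and 0.837 and 21.3 CPM in those of E32. Gpr37l1, an astrocyte receptor, had 5.12 and 0.613 CPM in E28 and 2.27 and 9.03 CPM in E32. S100b had 10.1 and 2.50 CPM in E28 and 5.58 and 13.7 CPM in E32. The eye with less Gfap had less of each of these picked genes in both mice. Pax2, a transcription factor of optic nerve astrocytes, was closer, with 7.50 and 5.65 CPM in E28 and 1.57 and 3.24 CPM in E32. The 24 further astrocyte genes as a whole were also closer, with summed levels of 1859 and 1582 CPM in E28 and 1585 and 2335 CPM in E32. The 26 further Muller glia genes summed to 6720 and 5797 CPM in E28 and 4517 and 3232 CPM in E32. In E32 the eye with less Gfap thus had the higher Muller glia sum. The left eye of E32 further had 354 CPM of Ncan and 37.3 CPM of Olig1, against at most 178 and 9.67 CPM in the other day 3 eyes, together with the 9.43 CPM of Aqp4. Both genes are known from brain and optic nerve glia, and how much optic nerve or other tissue came with each eye was not tested.

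**Figure D4:**
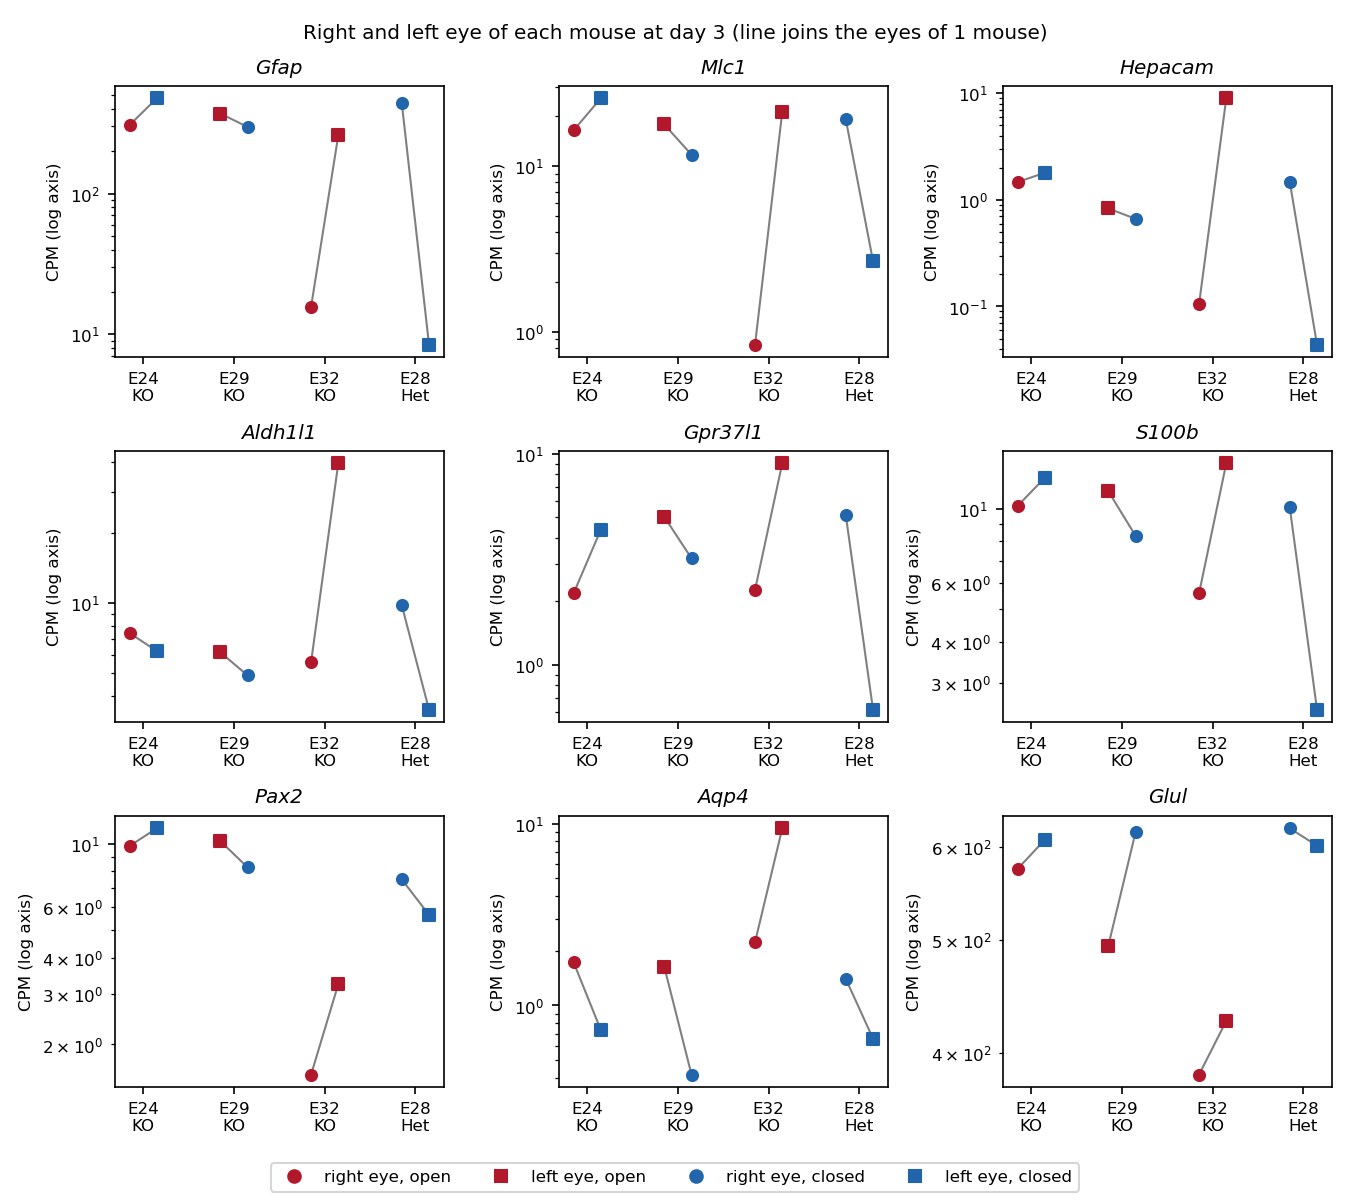
CPM (log axis) of 9 genes in the right (circle) and left (square) eye of each day 3 mouse, red for open and blue for closed eyelids, with a line joining the eyes of 1 mouse. The eyes of E32 and E28 lie far apart in Gfap (15.6 against 259 CPM and 438 against 8.41 CPM) and in Mlc1, while Glul spans 383 to 623 CPM over all 8 eyes.

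Across samples the members fell into sets that depended on age. Over 11 samples (day 3 eyes summed per mouse), Pearson's r of log2(CPM + 1) was 0.98 between Aqp4 and Abca8a, 0.96 between Glul and Kcnj10 and 0.89 between Slc1a3 and Dkk3. Adults lay apart from the younger samples, so r was also taken over the 8 newborn and day 3 samples. There Kcnj10, Slc1a3 and Dkk3 ran together (0.96 to 0.99), and Aqp4 and Abca8a together (0.88). These 2 sets ran against each other, with r of -0.97 between Slc1a3 and Aqp4 and -0.93 between Kcnj10 and Aqp4. The pair of endfoot channels, Kcnj10 and Aqp4, thus had r of 0.74 with adults and -0.93 without them. Apoe ran with Vim at 0.91 without adults and -0.23 with them, and Gfap was not above 0.57 with any member. The points share libraries, scaling and, within a group, age and genotype, and these values are descriptions.

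**Figure D5:**
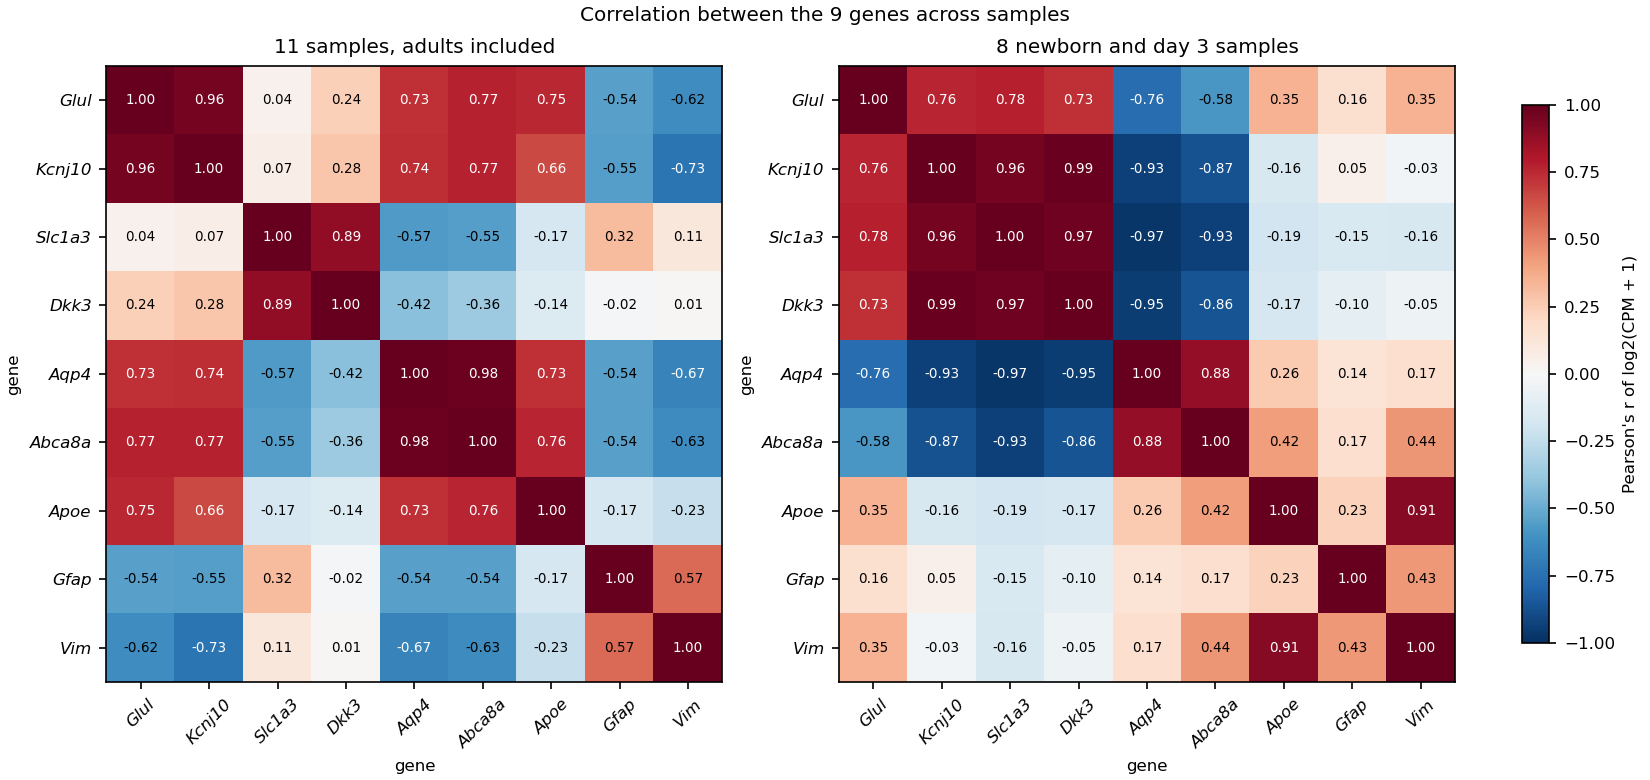
Pearson's r of log2(CPM + 1) between the 9 genes over 11 samples (left, adults included) and over the 8 newborn and day 3 samples (right). Red is positive and blue negative. Without adults, Kcnj10, Slc1a3 and Dkk3 form a red block (0.96 to 0.99) and are blue against Aqp4 and Abca8a.

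By the same measure over the 11 samples, the genes most like each member were taken from 12054 compared (mean of at least 5 CPM). Among the 2 for Slc1a3 was the phosphatase Ptpro (r = 0.979), with r of 0.99 without adults. For Dkk3 the 2 were Reep2 (0.980) and Ntng2 (0.979), and for Kcnj10 the aminotransferase Got1 (0.994) and the neurofilament Nefh (0.990). For Glul they were Gripap1 (0.989) and the nuclear receptor Rora (0.988). For Aqp4 they were the mitochondrial carbonic anhydrase Car5b and Reps2 (0.989 each), and for Abca8a the growth factor Fgf1 (0.992) and the sialyltransferase St8sia6 (0.991). For Apoe they were the neurotrophin receptor Ntrk2 (0.984) and Lgals3bp (0.952), and for Vim the translocon subunit Sec61a1 (0.994) and the smooth muscle gene Smtn (0.989). Gfap had no gene as close, with the sialyltransferase St6gal1 at 0.898 and the muscle synapse adaptor Dok7 at 0.891, which were 0.59 and 0.67 without adults.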

How the data were processed

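Poly(A)+ RNA of whole eyes was selected in 2 rounds, copied to double-stranded cDNA, ligated to adaptors without strand marking and amplified for 18 PCR cycles, per the labels' protocols, so reads of overlapping antisense genes cannot be told apart. Fixation and RNAlater are both mentioned there. The authors used CASAVA 1.8, Bowtie 0.12.9, TopHat2 2.0.11, SAMtools and build mm8, per the submitters' processing notes, and the counter and gene annotation release are not given in the sources used here. Each deposited table holds read counts and RPKM for 24373 transcripts, per the file headers. The authors' RPKM were used only for levels between genes. Of 20418 symbols, 2673 had several transcripts, of which the one with the highest mean count was kept.

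Counts were tested with edgeR 4.0.16 in R 4.3.3 (TMM scaling, filterByExpr, quasi-likelihood F test, Benjamini-Hochberg adjustment over all genes tested, threshold 0.05). The fits were first run on simulated counts. These gave every gene the same spread, so they do not show how the test performs on these libraries. Newborn and adult libraries shared 1 fit, day 3 eyes 1 with mouse as a block, day 3 mice 1 with eyes summed, and ages of labelled knockouts 1 of 11 samples. SE is the log2 fold change over the root of F. CPM used TMM over all 15 libraries. Promoters came from RefSeq, GRCm38.p6, and motif matches were letter searches, not sites. Alternatives were DESeq2 1.42.0 and its size factors, the authors' library totals (recovered from their RPKM), no filter, all transcripts, no lens genes, closed eyes, labelled-knockout samples alone, leaving out each library or mouse, and a replicate block. Adult against newborn within each genotype was added after seeing the data.

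The 9 genes and all gene lists were chosen with earlier results of these data known. All 9 genes are named in every comparison, with up to 3 genes of smallest adjusted p per list (2 of smallest p where none passed) and the 2 genes most like each member; others are said to be chosen after their values were seen. Some genes that this rule names are not reported here. None of the 11 pairs of libraries within a group agreed within sampling noise.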

Additional observations from a re-analysis of the deposited data

Results flagged for a closer look

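The left eye of mouse E32, an open eye labelled knockout, had 9.43 CPM of Aqp4, against 1.63 to 2.23 CPM in the other 3 open eyes. Its gap to the nearest of them was 0.92 of the group's range, above Dixon's critical value for 4 values, which chance alone passes in about 1 of 20 groups. The check was run on all 9 genes and flagged this value only, so chance flags some gene more often than that. The 4 eyes came from 3 mice, so they are not independent. The same eye had the lowest sum of inner retina markers and the highest Ncan and Olig1 levels of day 3. The part of other tissue in the Aqp4 value was not tested.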

How the results depend on the processing

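The 4 rises of adult against newborn and the 4 of adult against day 3 kept direction and call under every alternative that gave a value. Members called (of 9) moved as follows. Newborn genotype gave 3, 5 with DESeq2 (whose share over all genes is not given here) and 0 to 5 leaving out single libraries. The interaction gave 0, 1 with DESeq2 or no filter and 0 to 2 leaving out libraries. Day 3 against newborn gave 1, 6 with closed eyes or DESeq2, 0 with labelled-knockout samples alone or the authors' totals, and 0 to 5 leaving out libraries or mice. Over all genes, DESeq2 called 93 for day 3 genotype (0 in edgeR), 352 for eyelid (83), 4924 for day 3 against newborn (3207), 107 for adult genotype (0) and 2131 for the interaction (492). Adult genotype had 33 calls with the authors' totals and 13 with no filter, eyelid 29 with no mouse block, age 5734 in wild types, and day 3 against newborn 6938 with closed eyes and 1918 with labelled-knockout samples alone. Leaving out libraries or mice gave 0 to 6 for day 3 genotype, 0 to 129 for eyelid, 0 to 6149 for day 3 against newborn, 0 to 205 for adult genotype, 0 to 1613 for the interaction and 0 to 5116 for newborn genotype. The causes were not tested.

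Signs turned only where no call had been made. In adult genotype, Abca8a was 0.01 with the authors' totals, and leaving out libraries gave -0.34 to 0.13 for it, -0.01 to 0.59 for Aqp4, -1.87 to 2.03 for Gfap, -0.18 to 0.32 for Kcnj10 and -0.39 to 0.64 for Slc1a3. In age, Dkk3 was -0.23 and Slc1a3 -0.74 in wild types, and Slc1a3 -0.01 with all transcripts and -0.29 to 0.26 leaving out libraries. In day 3 genotype with closed eyes, Abca8a was -0.04, Aqp4 -0.86, Dkk3 0.09, Glul 0.03 and Slc1a3 0.10. Leaving out mice there gave -0.19 to 0.75 for Abca8a, -0.05 to 0.57 for Gfap, -0.39 to 0.02 for Kcnj10 and -0.50 to 0.01 for Slc1a3. In eyelid with no mouse block, Abca8a was 0.65 and Kcnj10 -0.14, and leaving out mice gave -0.49 to 0.37 for Abca8a, -0.61 to 0.33 for Gfap and -0.05 to 0.52 for Kcnj10. In the interaction, leaving out libraries gave -0.45 to 0.26 for Apoe and -3.15 to 0.73 for Gfap. At day 3 against newborn, Apoe was -0.19 with closed eyes, -0.11 with the authors' totals and -0.26 to 0.38 leaving out libraries or mice, and Vim -0.21, -0.09 and -0.10 to 0.23 likewise.

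Replicate numbers did not pair libraries (correlations of deviations -0.05, 0.15 and -0.01). With the replicate block the interaction had 0 calls over all genes, Slc1a3 in newborns an adjusted p of 0.0772 (edgeR), Vim with age one of 0.0518, and values of 0.07 (Abca8a) and -0.15 (Dkk3) in adult genotype, -0.01 (Slc1a3) in age and 0.13 (Apoe) in the interaction. Leaving out the adult wild type or E28 gave no value where it was a whole group. Depth limited Aqp4 at day 3, with 10 reads in 1 eye.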
